A study of Mus musculus with 18 samples.

Results

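The Ly6 genes described here are 8 members of a family of small surface proteins on mouse chromosome 15: Ly6a, Ly6a2, Ly6c1, Ly6e, Ly6g, Ly6i, Ly6f and Ly6k. They were taken by gene name from a table of 55385 genes measured in spleen. The set was chosen by the size of the Ly6a2 difference from wild type in these same data, which is among the strongest, and the other 7 came in as its relatives. For that reason the levels of Ly6a2 against wild type are given as a description, with no test. Of the 8 members, 7 were among the 18634 genes that passed a filter on low counts, and Ly6f did not. The close relative Ly6c2, known best from monocytes, is not a member and is used for comparison.

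Poly(A) RNA was sequenced from the spleens of 18 untreated adult mice, with 6 of each genotype and 3 males and 3 females in each. WT mice were wild-type C57BL/6J. Dp16 mice, a model of Down syndrome, have part of chromosome 16, between Lipi and Zbtb21, in an additional copy. In Dp16_2xIFNRs mice this duplication is kept, but the receptor genes inside it for interferons (Ifnar1, Ifnar2, Ifngr2 and Il10rb) have their usual dosage. No Ly6 member lies in the duplicated part. Ages are labelled 17.1 to 18.0, tagged as days post conception, while the series calls the mice adult, so no unit is given. Every library is labelled as a separate sample of whole spleen, with no word on litters or cages, so p-values measure the spread between these samples. Some samples share a code in their descriptions, also across genotypes. What the code means is not stated, so a grouping of the animals by it cannot be judged.

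Ly6 proteins are mostly short extracellular domains held in the membrane by a glycosylphosphatidylinositol (GPI) lipid anchor rather than by a transmembrane segment. Ly6a is Sca-1, the antigen used to sort blood stem and progenitor cells and also found on lymphocytes and endothelium. Ly6c1 is found on endothelium and lymphoid cells. Ly6g is the standard surface marker of mouse neutrophils. Ly6e is broadly expressed and modulates virus entry, Ly6i is found on myeloid cells, and Ly6k is known from male germ cells. Ly6a, Ly6e and Ly6i are among the Ly6 genes known to be induced by interferon, which is why the genotype with normalized receptor copies is of interest for this family.

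On the GRCm38 assembly all 8 members lie on chromosome 15. Ly6a2 spans 75131377 to 75135128 on the minus strand, between Ly6c2 (75108158 to 75111970, minus), 19.4 kb away, and Ly6g (75155240 to 75159126, plus), 20.1 kb away. The other members are Ly6k (74796874 to 74799986, minus), Ly6e (74955051 to 74959905, plus), Ly6i (74979534 to 74983430, minus), Ly6a (74994877 to 74998031, minus), Ly6c1 (75044018 to 75048830, minus) and Ly6f (75268421 to 75272235, plus). The authors' table classes Ly6a2 (ENSMUSG00000102051) as a transcribed unprocessed pseudogene, GENCODE vM21 names it I830127L07Rik, and RefSeq classes it as protein-coding. Ly6k overlaps Gm17189, a gene model on the opposite strand. Whether counting used the strand is not given in the sources used here, so reads of Ly6k and Gm17189 may not have been told apart.

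The sequence just upstream of Ly6a2 is shown because it is nearly a copy of that of its neighbour Ly6c2, while the measured levels of these genes differed. Both windows hold the 250 bases before the RefSeq start site (GRCm38.p6, minus strand, 5′ to 3′): chr15:75135129-75135378 for Ly6a2 and chr15:75111972-75112221 for Ly6c2. Capitals mark the substituted bases.
Ly6a2: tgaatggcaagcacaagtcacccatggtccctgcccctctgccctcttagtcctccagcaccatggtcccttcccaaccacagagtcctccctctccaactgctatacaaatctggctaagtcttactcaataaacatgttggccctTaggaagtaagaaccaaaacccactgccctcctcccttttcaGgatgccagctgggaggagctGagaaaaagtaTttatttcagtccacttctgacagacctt
Ly6c2: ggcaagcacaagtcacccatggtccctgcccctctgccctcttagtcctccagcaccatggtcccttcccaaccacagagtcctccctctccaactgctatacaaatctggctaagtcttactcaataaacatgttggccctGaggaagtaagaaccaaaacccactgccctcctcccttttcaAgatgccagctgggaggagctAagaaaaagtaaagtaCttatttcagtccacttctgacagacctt

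Of 245 aligned bases, 241 were identical (98.4%). The 4 substitutions were T148G, G190A, G211A and T222C, with the Ly6a2 base first and positions counted from 1 at the 5′ end of the Ly6a2 window, and Ly6c2 has 5 bases that are missing from Ly6a2. The RefSeq table has windows for 5 family genes (Ly6a2, Ly6c1, Ly6c2, Ly6g and Ly6f). Ly6c1, Ly6c2 and Ly6g each have a further start site and window there. For each pair of genes, the windows with the most identical bases were used. The other pairs were 75.9% to 87.0% identical over 200 to 247 aligned bases. Windows of 300 bases (250 before and 50 after the start) were searched on both strands for 4 motifs. GAGGAA, letters bound by the myeloid factor PU.1, was found in the windows of Ly6c1, Ly6c2, Ly6g and Ly6f but not in that of Ly6a2, and 28.3% of all 32851 windows hold it. In the windows shown, T148G is the base at which Ly6c2 has these letters upstream of its start and Ly6a2 does not. TTGCNNAA, a form of the site of C/EBP factors of granulocytes, was found for Ly6g and Ly6f (10.8% of all windows). For Ly6g it was in the window that begins at 75155011 and not in the one that begins at 75155079. Neither TTCNNNGAA, the GAS site of interferon gamma signalling (8.30% of windows), nor the letters GAAA, any 2 bases and GAAA, the core of the ISRE site of interferon-stimulated genes (3.44%), was found in any of the family windows. A match describes letters in this window only. No window was used for Ly6a, Ly6e, Ly6i or Ly6k.

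The first 60 bases of the reading frame show how alike some relatives are there, which bears on how well reads can be assigned. They come from GENCODE vM21 transcripts, 5′ to 3′, with capitals at bases that differ from Ly6a2.
Ly6a2: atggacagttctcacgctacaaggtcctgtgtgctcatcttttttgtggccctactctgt
Ly6c2: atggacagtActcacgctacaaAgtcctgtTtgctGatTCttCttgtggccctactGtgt
Ly6c1: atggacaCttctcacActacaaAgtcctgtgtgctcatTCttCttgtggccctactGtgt
Ly6a: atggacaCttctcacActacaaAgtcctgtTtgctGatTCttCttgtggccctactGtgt
Ly6i: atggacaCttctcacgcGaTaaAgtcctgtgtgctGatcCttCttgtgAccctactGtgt
Ly6g: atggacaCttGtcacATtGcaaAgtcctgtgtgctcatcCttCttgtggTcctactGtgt

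The relatives differed from Ly6a2 at 7 (Ly6c1) to 10 (Ly6g) of these 60 bases. Over its whole 405-base model, Ly6a2 was 85.4% identical to Ly6i, 84.8% to Ly6c2, 84.0% to Ly6a and 82.0% to Ly6g. Identity was lower with Ly6f (81.0%), Ly6c1 (79.2%), Ly6k (67.4%) and Ly6e (67.0%). The longest open reading frame of Ly6a2 in the vM21 models held 45 codons before the stop, against 131 to 154 in the relatives. The reads were 150 bases long by the labels. All 150-base stretches of the Ly6a2 transcript were found in no other gene's transcripts, and the same held at 100 bases, while 88.7% of its 50-base stretches were its own. Ly6c1 and Ly6c2 are less separable: 94.4% of the 150-base stretches of Ly6c1 were its own, the rest being shared with Ly6c2, so a small part of their counts is uncertain. Of the 150-base stretches of Ly6k, 89.3% were its own and the rest were shared with Gm17189.

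Library totals ran from 33998427 to 53021480 counts, so that a count of 0 allows up to 3 counts, or 0.0566 to 0.0882 CPM, the unit of counts relative to the library total. Floors cover counting error only. The sex labels of all 18 libraries fitted their sex-linked genes. The share of Gm42418, a model on ribosomal RNA sequence, was 0.691% to 5.509%, with 4 libraries above 4%. Spleen marker genes were present throughout, with summed B cell markers between 2199 and 5161 CPM. Adult haemoglobin genes took 0.543% to 1.66% of counts in WT, 1.75% to 3.24% in Dp16 and 1.64% to 3.447% in Dp16_2xIFNRs.

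Levels can be compared between genes as RPKM, that is, counts scaled to the gene's length and the library total. Ly6e was the most abundant member in all 3 genotypes, followed by Ly6a, and neither overlapped the next in rank. In WT the next were Ly6c1 (median 28.9 RPKM), Ly6a2 (9.74), Ly6k (4.94), Ly6i (2.01) and Ly6g (1.59). From Ly6a2 down to Ly6g, neighbours in this order overlapped in WT. In Dp16 and in Dp16_2xIFNRs, Ly6a2 stood above Ly6c1 by median, at 34.8 and 35.2 RPKM against 29.5 and 29.5, but the libraries of these 2 genes overlapped. Ly6g came next in both, at 10.3 and 8.37 RPKM. It overlapped Ly6k, which overlapped Ly6i. Ly6f was at the bottom: 4 counts in WT replicate 5 and 0 in the other 17 libraries.

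**Figure D1:**
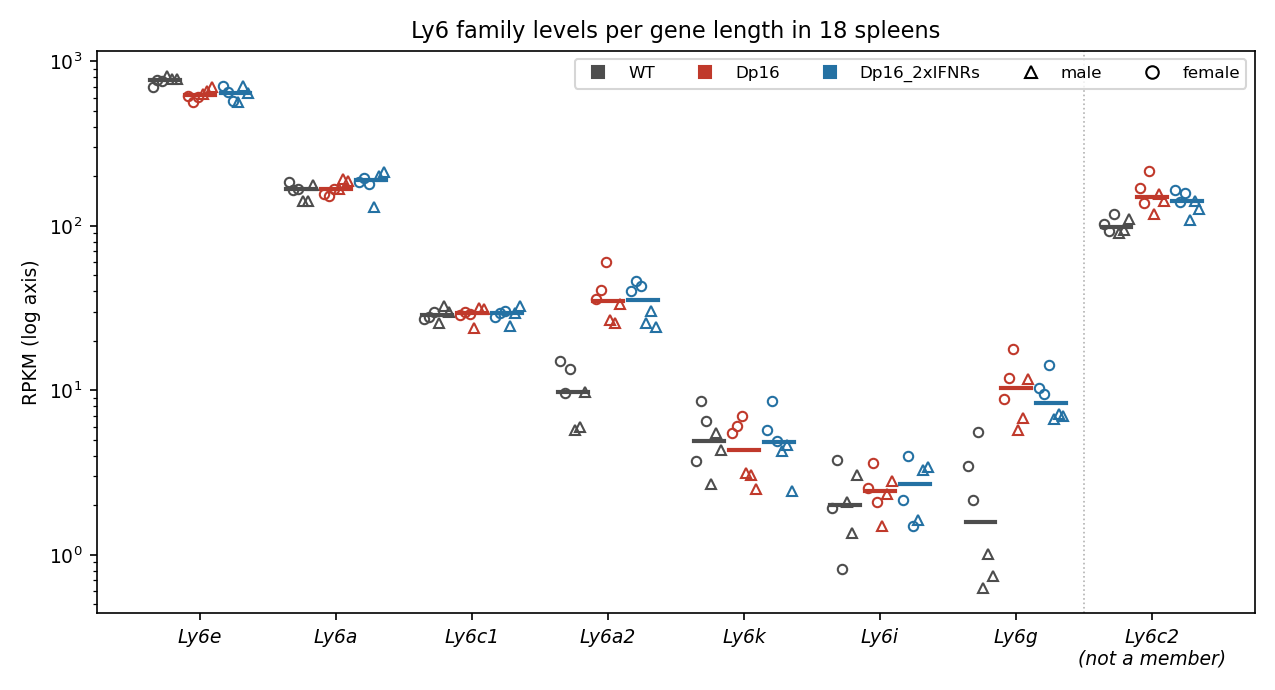
Levels of 7 Ly6 members and of Ly6c2 in 18 spleens, as RPKM on a log axis, with 1 point per library (circles female, triangles male) and a bar at the median of the 6 libraries of each genotype. Ly6a2 and Ly6g of Dp16 and Dp16_2xIFNRs lie above all WT libraries, while Ly6e of Dp16 lies below them.

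Dp16 was compared with WT to ask what the extra interval changes. Ly6a2 and its neighbour Ly6g were higher in Dp16 than in WT, 4.09-fold and 5.84-fold in the fit, while Ly6a, Ly6c1, Ly6i and Ly6k did not pass the test and Ly6e was slightly lower without passing it. Of the 6 tested members other than Ly6a2, 1 was called higher (Ly6g) and 0 were called lower at a Benjamini-Hochberg adjusted p below 0.05 in edgeR's quasi-likelihood test. Over all 18634 genes 29.8% were called, 16.6% higher and 13.2% lower. The family was picked with these results known, so nothing is read from the members' share.

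Ly6a2 ranged from 5.73 RPKM in WT through a median of 9.74 to 15.1, and from 25.8 through 34.8 to 60.5 in Dp16. All 6 Dp16 libraries were above all 6 WT libraries, with Dp16 replicate 5, a female, the highest. The log2 fold change was 2.03 ± 0.15 (SE), a fold of 4.09. This fitted value uses scaled library sizes, and the plain ratio of mean CPM (29.7 ± 10.2 against 7.94 ± 3.03, SD, n = 6 each) was 3.74.

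Ly6g, on the other side of a 20.1 kb gap and the marker by which neutrophils are gated, had 28 to 238 counts in WT libraries. Its lowest, median and highest levels were 0.633, 1.59 and 5.58 RPKM in WT and 5.71, 10.3 and 17.8 in Dp16. The groups did not overlap, but the highest WT library (replicate 5) and the lowest Dp16 library (replicate 2) nearly met. Ly6g rose by 2.54 ± 0.32 on the log2 scale (adjusted p = 3.1e-05). Among all tested genes, 4.57% had Dp16 libraries all above the WT libraries, as Ly6a2 and Ly6g did, and 12.9% did not overlap in either direction.

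Ly6e, the most abundant member, ran from 700 through 771 to 811 RPKM in WT and from 563 through 623 to 700 in Dp16. The genotypes did not overlap, although the lowest WT and the highest Dp16 library were equal to the digits printed. Over all tested genes, 12.9% did not overlap in either direction. RPKM use plain library totals, by which the ratio of mean CPM was 0.823, while the fit with scaled library sizes gave a fold of 0.891. The log2 fold change of -0.17 ± 0.07 missed the threshold (adjusted p = 0.0613). It passed in 7 of 15 other processing choices and in 2 of 18 fits that left out a library (Dp16 replicate 6 or Dp16_2xIFNRs replicate 1), with values between -0.28 and -0.06 over those 15, so the call changed with the processing. The 7 choices were RLE and upper quartile scaling, DESeq2, no filter, both fits on RPKM and a fit of only the 12 libraries compared.

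The remaining tested members overlapped between Dp16 and WT. Ly6a, the Sca-1 gene, had medians of 166 RPKM in WT and 167 in Dp16 and a log2 difference of 0.18 ± 0.11 (adjusted p = 0.25, 95% interval -0.04 to 0.40). Ly6c1 stood at 28.9 and 29.5 RPKM with 0.13 ± 0.09 (adjusted p = 0.306). Ly6i, at 2.01 and 2.46 RPKM, gave 0.32 ± 0.33 (adjusted p = 0.522). Ly6k, at 4.94 and 4.35 RPKM, gave -0.15 ± 0.22 (adjusted p = 0.676). Ly6a and Ly6c1 thus had narrow intervals around small differences, whereas those of Ly6i and Ly6k were wide.

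Dp16_2xIFNRs was compared with the same 6 WT libraries to ask what remains when the receptor copies are normal. Ly6a2 ranged from 24.2 through 35.2 to 46.4 RPKM in Dp16_2xIFNRs, again with no overlap with WT, and its log2 difference was 1.94 ± 0.15, a fold of 3.85. Ly6g, at 6.73, 8.37 and 14.2 RPKM, rose by 2.35 ± 0.32 (adjusted p = 5.3e-05). In this comparison 31.4% of all genes were called, 17.3% of them higher and 14.2% lower as shares of the genes tested, and 4.49% had Dp16_2xIFNRs libraries all above WT (12.7% without overlap in either direction).

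Ly6a also passed the threshold in this comparison, at 0.29 ± 0.11 (adjusted p = 0.0484), with 130, 191 and 212 RPKM against 141, 166 and 186 in WT. The groups overlapped: 3 libraries stood above all of WT, and the lowest of all 12 was also Dp16_2xIFNRs. The call was lost in 14 of 18 fits that left out a library (adjusted p of 0.053 to 0.145 in those fits) and in 9 of 15 other processing choices. Ly6e (-0.14, adjusted p = 0.124), Ly6c1 (0.13, adjusted p = 0.298), Ly6i (0.42, adjusted p = 0.373) and Ly6k (0.06, adjusted p = 0.887) were not called. In 3 of the 15 other choices Ly6e was called lower and Ly6a was not called: upper quartile scaling (Ly6e -0.20, adjusted p = 0.0334) and limma-trend on log2(RPKM + 0.1) and log2(RPKM + 1) (Ly6e -0.26 in both, adjusted p = 0.00462 and 0.00474).

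The direct comparison of Dp16_2xIFNRs with Dp16 was not used to choose the members and asks whether receptor copy number matters for them. None of the 7 tested members was called, and all 7 adjusted p-values were 1.0. Over all genes 4 were called (0.0215%), all lower in Dp16_2xIFNRs, with 438 at an unadjusted p below 0.05. DESeq2 also called 4. The difference in Ly6a2 was -0.09 ± 0.14 on the log2 scale, with a 95% interval of -0.37 to 0.19. For Ly6g it was -0.20 (-0.77 to 0.38) and for Ly6a 0.11 (-0.10 to 0.33). These intervals bound the size of a difference and do not show that the genotypes are alike.

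**Figure D2:**
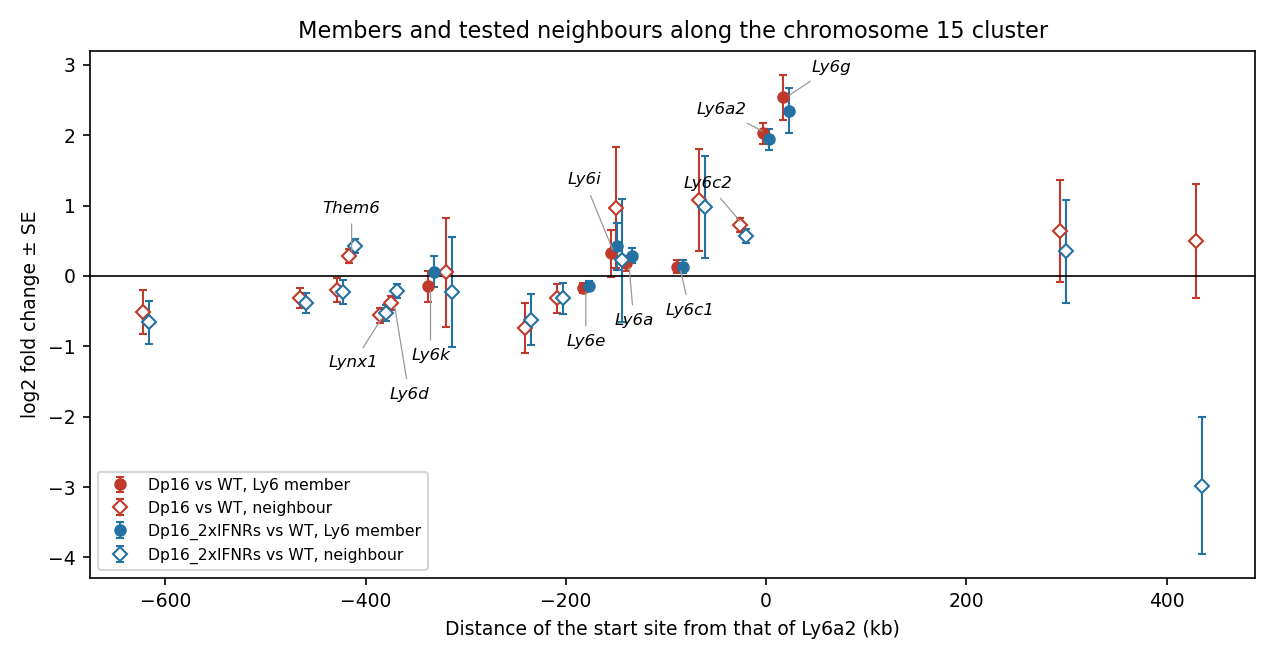
Log2 fold changes from WT with SE, for 7 tested members (filled circles) and 14 tested neighbours (open diamonds), by the distance of each start site from that of Ly6a2 in kb, negative towards Ly6k. Ly6a2 and Ly6g stand near 2 or above in both genotypes, Ly6c2 lies between 0 and 1, and most others lie near 0, with wider errors for genes of few counts and Ly6h at -2.98 in Dp16_2xIFNRs.

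Along the chromosome, 47 other genes of the table lie within 300 kb of the members. Of these, 19 had 0 counts in all 18 libraries and 14 passed the filter. Dp16 against WT called 2 of the 14 higher and 2 lower, with a median log2 fold change of -0.08, against a median of -0.01 over all tested genes. The share called is near the 29.8% of all genes. Ly6c2 rose by 0.73 ± 0.10 (adjusted p = 3.3e-05), with 90.5, 99.0 and 118 RPKM in WT and 118, 150 and 216 in Dp16. Them6 rose by 0.29 ± 0.10 (adjusted p = 0.0278). Lynx1, which encodes a modulator of nicotinic receptors, fell by 0.56 (adjusted p = 0.000626), and Ly6d, a marker of B cell progenitors, fell by 0.38 (adjusted p = 0.00582). Ly6c2, Ly6a2 and Ly6g thus follow one another on the chromosome. The members farther away, Ly6c1 with 82.5 kb and Ly6a with 133.3 kb between gene ends, were not called in Dp16. Gm5960, a pseudogene between Ly6c1 and Ly6c2, gave 1.08 ± 0.73 (adjusted p = 0.298). Few genes beyond Ly6g passed the filter, and a dependence on distance was not tested.

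In Dp16_2xIFNRs, 2 of the 14 tested neighbours were called higher and 3 lower than WT, with a median of -0.23 against -0.01 over all tested genes. The share called is near the 31.4% of all genes (17.3% higher and 14.2% lower), so nothing is read from it. Ly6c2 (0.57 ± 0.10, adjusted p = 0.000207) and Them6 (0.42 ± 0.10, adjusted p = 0.00246) rose. Lynx1 fell by 0.53 (adjusted p = 0.000911) and Arc fell by 0.38 (adjusted p = 0.0366). Ly6h fell by 2.98 with an SE of 0.97 (adjusted p = 0.022) and was named after its values were seen. Its level is close to the floor, with medians of 0.0723 RPKM in WT and 0.00527 in Dp16_2xIFNRs and at most 26 counts in any library.

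The proportion of Ly6a2 to its relatives is given as a description. The ratio of Ly6a2 to Ly6c2 in RPKM had a median of 0.0968 in WT (0.0628 to 0.146), 0.231 in Dp16 (0.165 to 0.298) and 0.239 in Dp16_2xIFNRs (0.192 to 0.331), with no overlap with WT. The ratio of Ly6a2 to Ly6a was 0.0570, 0.205 and 0.207 by median, also without overlap with WT. The ratio of Ly6a2 to Ly6g overlapped between genotypes, with medians of 5.18, 3.61 and 3.85 and a WT range of 2.41 to 13.1.

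The other genes listed for the Ly6 and urokinase receptor (uPAR) superfamily, most of which share the same protein fold, did not move in a common direction. Of 37 listed, 20 passed the filter. In Dp16 against WT 5 rose and 4 fell, with a median of -0.07, and in Dp16_2xIFNRs against WT 5 rose and 4 fell, with a median of 0.07. Over all genes 29.8% and 31.4% were called in these comparisons, with a median of -0.01 in each. The strongest was Cd177 (2.53 ± 0.19, adjusted p = 3.9e-07), a GPI-anchored protein of the neutrophil surface. Cd59a, an inhibitor of complement, rose by 1.21 ± 0.16 (adjusted p = 3.1e-05). The next on the list were Ly6c2 and Lynx1, given above. The genes that build and attach the GPI anchor were also mixed: of 27 tested, 4 rose and 3 fell in Dp16 (29.8% of all genes were called), with a median of 0.02. Pgap1, which remodels the anchor, fell by 0.90 (adjusted p = 3.5e-05), and Pigv, a mannosyltransferase, fell by 0.48 (adjusted p = 0.00109). Piga, which acts at the first step of anchor synthesis, rose by 0.79 ± 0.17 (adjusted p = 0.0011). In Dp16_2xIFNRs the counts were again 4 and 3. Dp16_2xIFNRs against Dp16 called none of either list.

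Neutrophil markers moved with the genotype in the same direction as Ly6a2 and Ly6g. Of 14 neutrophil markers, 12 rose and 0 fell in Dp16 against WT (16.6% and 13.2% of all genes), with a median log2 fold change of 2.51. Their summed level was 549 to 2192 CPM in WT, 3240 to 11057 in Dp16 and 3795 to 6257 in Dp16_2xIFNRs. The leading markers S100a9 and S100a8, the subunits of calprotectin, rose by 2.45 ± 0.21 and 2.48 ± 0.22. The 12 that rose encode granule and secreted proteins, including Mpo, Elane and Prtn3 of primary granules. The receptors Cxcr2 (-0.19 ± 0.15, adjusted p = 0.39) and Csf3r (-0.01 ± 0.15, adjusted p = 0.977) were not called. In bulk tissue, more cells of a type and more RNA per cell cannot be told apart.

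Over all genes 29.8% were called in Dp16 against WT, and some other lists stood above that share. All 8 erythroid markers rose in Dp16, with a median of 1.58 and sums of 2152 to 8626 CPM in WT and 8938 to 15421 in Dp16. All 8 B cell markers fell, with a median of -0.67 (3331 to 5161 CPM in WT, 2199 to 2752 in Dp16). Of 8 endothelial markers 5 fell, with a median of -0.41. Monocytes are the cells for which Ly6c2 is known. Of 8 monocyte markers, 1 rose and 1 fell, with a median of 0.13. Of 7 stem and progenitor markers, whose cells Sca-1 helps to sort, 0 rose and 2 fell. T cell markers gave 0 and 2 of 8, plasma cell markers 1 and 1 of 6, stromal markers 0 and 2 of 5 and red pulp macrophage markers 0 and 0 of 5. The monocyte, stem and progenitor, T cell and plasma cell counts are near the share of all genes, so nothing is read from them. None of the 5 testis markers was tested, with sums of at most 0.985 CPM, and Tnp1 was at 0 in all libraries.

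Within genotypes, the levels of Ly6a2 and Ly6g had the highest correlation with the neutrophil markers among the members. After each genotype's mean was subtracted, the Pearson r over 18 libraries between the neutrophil score (the mean log2 CPM of the 14 markers) and the member was 0.88 for Ly6a2 and 0.93 for Ly6g. It was 0.56 for Ly6k, 0.14 for Ly6a, 0.09 for Ly6c1, -0.19 for Ly6i and -0.37 for Ly6e. These values include the difference between females and males, since every female score was above every male score within each genotype. With the mean of each genotype and sex subtracted, r was 0.66 for Ly6a2, 0.86 for Ly6g and -0.10 for Ly6k. On that scale Ly6a2 also gave 0.64 with the plasma cell score and 0.60 with the monocyte score. Its likeness to the neutrophil markers was thus not particular once sex was removed. For Ly6g the next highest cell type score was that of red pulp macrophages, at 0.55. Against the B cell score Ly6a2 gave -0.77 and Ly6e 0.57 within genotypes, and -0.65 and 0.44 within genotype and sex. The libraries share their depth and cell composition across all genes, so these values describe the libraries and carry no test.

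**Figure D3:**
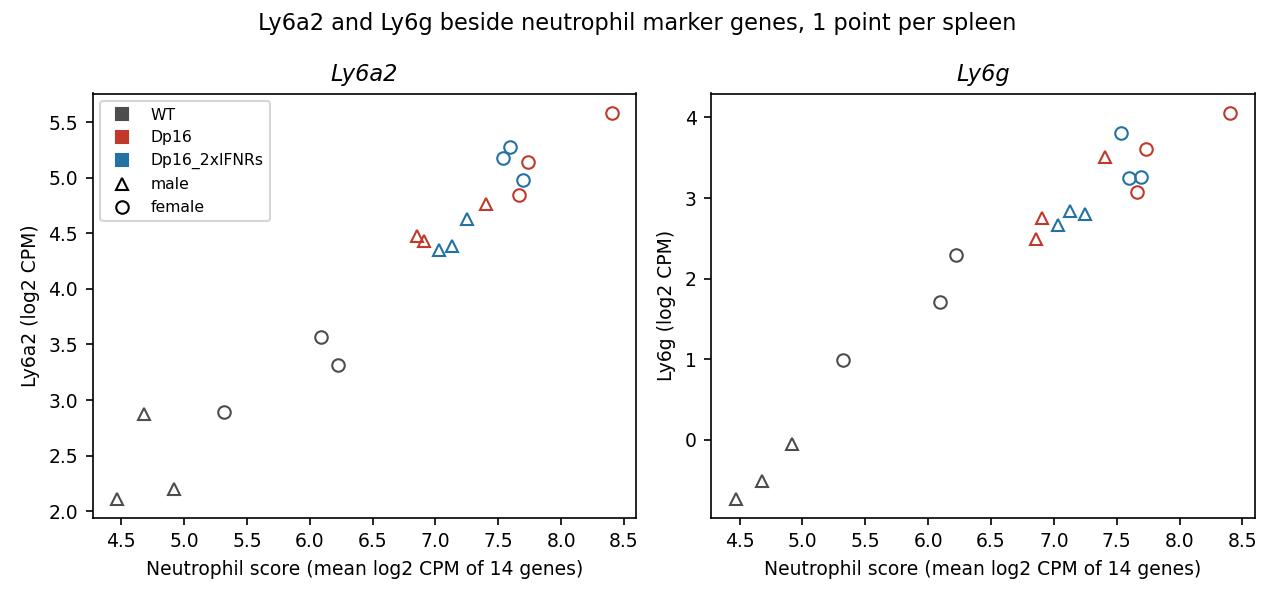
Log2 CPM of Ly6a2 (left) and Ly6g (right) against the neutrophil score, the mean log2 CPM of 14 marker genes, with 1 point per spleen, colour for genotype and shape for sex. Both genes climb with the score, and the WT scores (4.47 to 6.22) lie below those of Dp16 (6.86 to 8.40) and Dp16_2xIFNRs (7.03 to 7.70).

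The members were also fitted with the score as a further term. With the neutrophil score, the difference in Ly6a2 was 0.89 ± 0.40 in Dp16 and 0.88 ± 0.38 in Dp16_2xIFNRs, given as a description with no test. Ly6g went to -0.48 ± 0.58 (adjusted p = 0.924) and -0.46 ± 0.55 (adjusted p = 0.886), a change of sign with neither value called. Under the same term 0 genes were called in Dp16 and 1 in Dp16_2xIFNRs (1120 and 1357 at an unadjusted p below 0.05). WT scores overlap with neither of the other genotypes, so this term and the genotype are hard to separate, and the errors grow. With the erythroid score in its place, Ly6a2 was at 1.85 ± 0.27 and 1.76 ± 0.27, and Ly6g at 1.60 ± 0.52 (adjusted p = 0.351) and 1.41 ± 0.51 (adjusted p = 0.526) lost its call. Erythroid scores of WT (6.6 to 8.98) also overlapped with neither Dp16 (9.11 to 9.89) nor Dp16_2xIFNRs (9.11 to 10.01). The erythroid term is thus hard to separate from the genotype as well, and which score accounts for a difference was not tested.

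**Figure D4:**
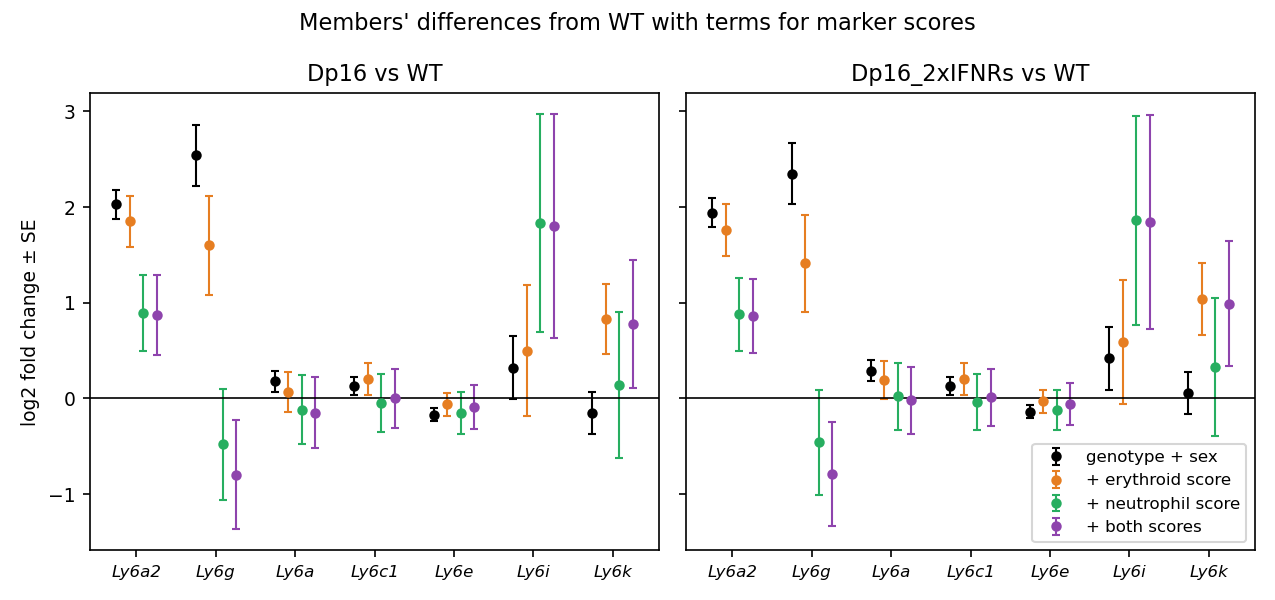
Log2 fold changes from WT with SE for 7 members, in Dp16 (left) and Dp16_2xIFNRs (right), fitted with genotype and sex alone or with marker scores added. With the neutrophil score Ly6a2 lies at 0.89 and 0.88, and Ly6g crosses 0.

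The genes most like each member were taken by Pearson r of log2 CPM over the 18 libraries within genotypes, the 3 highest for each member, with differences between the sexes left in. Gene models with a Gm number, a Rik name or a clone name were left out beforehand, as were immunoglobulin and T cell receptor segments. For Ly6a2 they were Chil1 (0.91), a chitinase-like protein of neutrophil granules, Wfdc21 (0.90) and Lcn2 (0.90), the neutrophil lipocalin. For Ly6g they were Prtn3 (0.95), proteinase 3, Ngp (0.95), neutrophilic granule protein, and Fcnb (0.94), ficolin B. Lcn2, Prtn3, Ngp and Fcnb are also among the 14 markers. Ly6a was nearest to Ddt, Gadd45b and Ssr4 (0.89 to 0.90), Ly6c1 to Rhoc, Dpp6 and Nip7 (0.87 to 0.89), and Ly6e to Gm2a, Zcwpw1 and Lsp1 (0.87 to 0.89). The low members Ly6i and Ly6k reached 0.81 (Rpl13a-ps1) and 0.82 (Lrrfip2). Among the family itself, Ly6a2 was closest to Ly6g (r = 0.82, the 30th of all tested genes), then Ly6c2 (0.69) and Ly6k (0.59). It stood apart from Ly6c1 (0.08), Ly6i (0.00) and Ly6e (-0.37). Ly6a gave 0.60 with Ly6c1, 0.56 with Ly6e and 0.41 with Ly6i, while Ly6c1 with Ly6e gave 0.34.

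Males and females were compared within the same fit, a contrast that the choice of members did not use. Ly6a2 was lower in males, by a log2 difference of -0.73 ± 0.12 (adjusted p = 0.00558). It was the only member among the 48 genes called (0.258% of those tested), of which 10 (0.0537%) were higher and 38 (0.204%) lower in males. Female libraries of WT ran from 7.73 to 12.0 CPM and male ones from 4.58 to 7.81, with an overlap of 1 male and 1 female. In Dp16 the females ran from 28.8 to 48.3 and the males from 20.6 to 26.7, and in Dp16_2xIFNRs from 32.1 to 37.0 and from 19.3 to 24.1, with no overlap in either. The share of all genes whose sexes separate in this way was not counted, so nothing is read from it. Other members separated too, with females higher for Ly6k (Dp16 and Dp16_2xIFNRs) and Ly6g (WT and Dp16_2xIFNRs). Males were higher for Ly6e (WT and Dp16) and Ly6a (Dp16). Female means were 1.78, 1.60 and 1.62 times the male means in the 3 genotypes.

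Ly6k and Ly6g had similar or larger differences that missed the threshold. Ly6k gave -0.81 ± 0.18 (adjusted p = 0.0714), with female means 1.5, 2.13 and 1.69 times the male means, and was called without WT replicate 2 (-0.90, adjusted p = 0.0294), with DESeq2 (-0.81, adjusted p = 0.00645) and with the erythroid score as a term (-0.99, adjusted p = 0.0107). Ly6g gave -1.12 ± 0.25 (adjusted p = 0.0807) and was called without Dp16 replicate 1 (-1.23, adjusted p = 0.0414) or without Dp16 replicate 6 (-1.28, adjusted p = 0.0191), with DESeq2 (-1.15, adjusted p = 0.000423) and with a block for a code that some sample descriptions share (-1.74, adjusted p = 0.0301). Ly6a (0.00 ± 0.09), Ly6c1 (0.01), Ly6e (0.09) and Ly6i (-0.06) were not called. The neutrophil markers moved with sex as well: 10 of 14 were lower in males and 0 higher (0.204% and 0.0537% of all genes), with a median of -1.1. With the neutrophil score as a term, the sex difference of Ly6a2 was -0.29 ± 0.18 (adjusted p = 1.0), that of Ly6g was 0.05 ± 0.26 and that of Ly6k was -0.91 ± 0.32, none of them called. Within each genotype every female score was above every male score, so this term and sex are hard to separate. Whether the score accounts for the sex difference was not tested. The call of Ly6a2 was also lost with a replicate block (-0.71, adjusted p = 0.0848) and when the 4 libraries above 4% Gm42418 were left out (-0.68, adjusted p = 0.187), and over 29 alternatives its adjusted p ran from 2.2e-06 to 1.0.

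**Figure D5:**
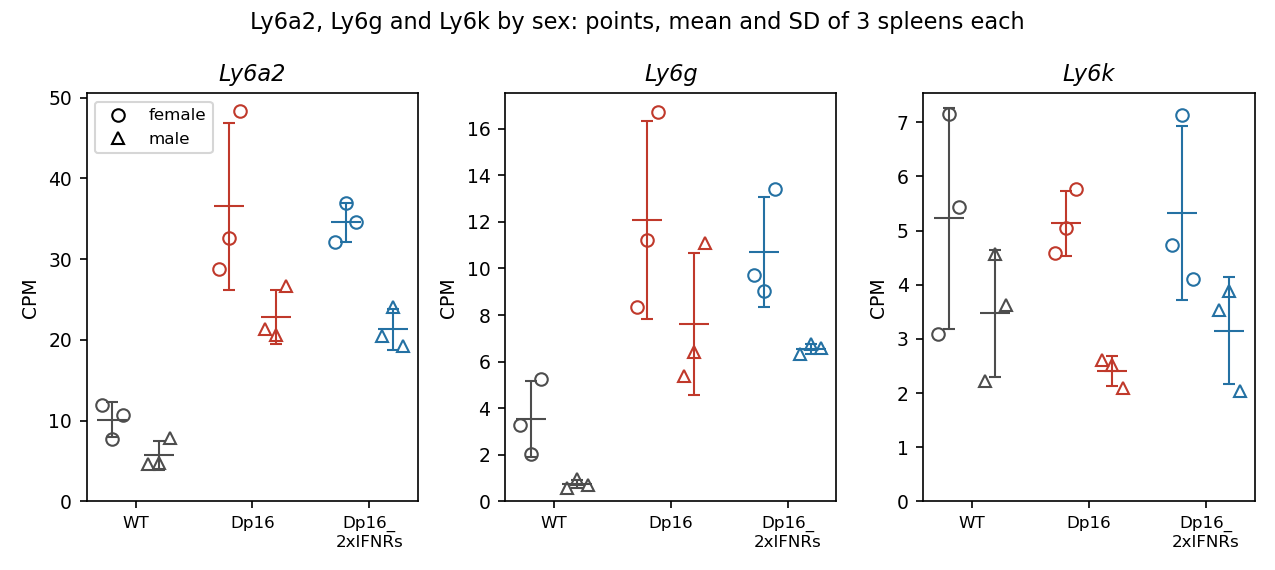
CPM of Ly6a2, Ly6g and Ly6k by genotype and sex on axes from 0, with circles for females, triangles for males, and the mean and SD of 3 spleens. Ly6a2 and Ly6k are separated by sex in Dp16 and Dp16_2xIFNRs and overlap in WT. Ly6g is separated in WT and Dp16_2xIFNRs and overlaps in Dp16, and male WT spleens have Ly6g below 1 CPM.

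The size of the genotype difference was then tested for a dependence on sex. Neither interaction called any of the 18634 genes (0.0% in both), with 439 and 745 at an unadjusted p below 0.05, and DESeq2 called 1 and 0. For Ly6a2 the interaction was 0.19 ± 0.30 with Dp16 and 0.16 ± 0.30 with Dp16_2xIFNRs (adjusted p = 1.0 in both). Ly6g had the largest values among the members, 1.60 ± 0.47 (unadjusted p = 0.00299) and 1.55 ± 0.47 (unadjusted p = 0.00381), both with an adjusted p of 1.0. In WT the female mean of Ly6g was 4.69 times the male mean (3.53 against 0.751 CPM), and in Dp16 and Dp16_2xIFNRs it was 1.59 and 1.63 times. These Ly6g values do not pass correction over all genes.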

How the data were processed

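Poly(A) RNA of 18 mouse spleens was measured with TRIzol extraction, a strand-specific Tecan/Nugen kit and paired reads on an Illumina NovaSeq, per the labels. The authors deposited raw read counts per gene, and RPKM values that equalled those counts divided by gene length and library total (11538 genes, largest relative deviation 2e-15). Per the submitters' processing notes, FastQC 0.11.5, HISAT2 2.1.0, SAMtools 1.5, HTSeq 0.6.1, bcl2fastq and GRCm38 were used, with no roles given. The filters and the strand setting are not given in the sources used here. Totals were 33998427 to 53021480 counts per library. Of 45 pairs of libraries within a genotype, the most alike differed by a chi-square of 35.1 per degree of freedom, so none was counted as a copy.

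Positions came from GENCODE vM21, matched by gene identifier for 55144 of 55385 genes (99.6%), and sequences from vM21 transcripts and the RefSeq promoter table. Genotype and sex were the terms of a quasi-likelihood fit over all 18 libraries in edgeR 4.0.16 (R 4.3.3, TMM scaling, filterByExpr by genotype). P-values were adjusted by Benjamini-Hochberg over 18634 genes, and a gene was called below 0.05. A second fit held genotype by sex interactions. Errors are SE of the fit, or SD over libraries. CPM are per library total, and log2 CPM for scores used a prior count of 2. On simulated counts with 200 changed genes for Dp16 against WT (18634 genes), 59% of log2 changes of 1 and 78% of log2 changes of 2 were recovered, with 2.1% false among the calls. Far more genes were called in the data (29.8%), so these recovered shares do not measure the sensitivity of the reported comparison.

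The members and all gene lists were chosen with earlier results of these data known. Named genes are the members, Ly6c2, up to 10 tested neighbours within 300 kb with the smallest p in Dp16 against WT, the 4 (superfamily) or 3 (GPI anchor) list genes with the smallest p there, the leading 2 genes of the neutrophil list (those of other marker lists are not reported here), and the 3 genes most like each member. Arc, Ly6d and Them6 are among the neighbours; Ly6h, Mpo, Elane, Prtn3, Cxcr2, Csf3r and Tnp1 were named after their values were seen. Alternatives were RLE and upper quartile scaling, DESeq2 1.42.0, limma-trend 3.58.1 on log2(RPKM + 0.1) and log2(RPKM + 1), no filter or 1 CPM in 6 libraries, no sex term, blocks for the sample number or for a code that some sample descriptions share, score terms, subsets of libraries, and each library left out. For males against females, the score, block and Gm42418 alternatives were added after seeing the data, as were score correlations within genotype and sex. Libraries with the same sample number were hardly more alike than others. Over 18 such pairs across genotypes the mean correlation of deviations was 0.019, against -0.004 in 90 other pairs. These deviations still held the differences between the sexes, and several of the pairs join a male and a female, so pairing is not excluded. The shared description code was used as a block and was not checked in this way.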

Additional observations from a re-analysis of the deposited data

Results flagged for a closer look

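Of 22 groups of 6 libraries, 1 had a library far from the others, and chance alone flags about 1 in 20. Ly6f in WT stood at 0.0884 CPM in replicate 5 (4 counts) and at 0 in the other 5 WT libraries, so the whole range came from that library. The value is barely above the level that a count of 0 allows.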

How the results depend on the processing

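The signs of Ly6a2 against WT held in all 15 processing alternatives (0.87 to 2.22 in Dp16, 0.86 to 2.16 in Dp16_2xIFNRs) and in 18 fits without a library (1.95 to 2.13 and 1.87 to 2.04). Its value moved with the neutrophil score (0.89 and 0.88) and with both scores (0.87 and 0.86), and the rest were near the main value. The cause was not tested.

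Genes called in Dp16 against WT went from 5553 to 0 with the neutrophil score, 57 with the erythroid score and 0 with both, and in Dp16_2xIFNRs from 5860 to 1, 35 and 0. Without a library these counts ran from 4779 to 5781 and from 4938 to 6064, and for Dp16_2xIFNRs against Dp16 from 3 to 4. The share of calls that were higher fell from 55.7% to 43.4% in Dp16 under upper quartile scaling and to 36.1% and 35.5% in the fits on RPKM + 0.1 and RPKM + 1. In Dp16_2xIFNRs it fell from 54.9% to 43.7%, 36.9% and 36.1%. In the fits on RPKM + 0.1 the median of all genes was -0.13 and -0.12, against -0.01 in each main comparison, with Ly6e at -0.28 and -0.26 there.

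Members called besides Ly6a2 in Dp16 went from 1 to 2, with Ly6e added, under RLE, upper quartile, DESeq2, no filter, both RPKM fits and the 12 libraries compared, and to 0 under each score setting. In Dp16_2xIFNRs they went from 2 to 1, with Ly6a lost, under no filter, the 12 libraries compared and omission of libraries rich in Gm42418, and to 0 under each score setting. Under upper quartile scaling and both RPKM fits the count stayed at 2, but with Ly6e called lower (-0.20, -0.26 and -0.26) and Ly6a lost. Both counts ran from 1 to 2 without a library.

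For males against females the 48 calls became 142 (DESeq2), 7 (neutrophil score), 27 (erythroid score), 7 (both), 16 (replicate block) and 10 (without libraries rich in Gm42418). Without a library they ran from 21 to 81: 21 and 22 without Dp16 replicates 2 and 4, 27 and 29 without WT replicates 4 and 6, and 81 without Dp16_2xIFNRs replicate 1. Members called went from 1 (Ly6a2) to 3 (DESeq2, Ly6g and Ly6k added), 2 (erythroid score, Ly6k added, or description code block, Ly6g added) and 0 (neutrophil score, both scores, replicate block, without libraries rich in Gm42418), and from 1 to 2 without a library. The sex by Dp16 interaction gave 1 call with DESeq2, and both interactions gave 0 without a library.

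Signs turned as follows, with no turned value called. In Dp16 they were Ly6a -0.12 and -0.15 (neutrophil, both scores), Ly6c1 -0.05 (neutrophil), Ly6g -0.48 and -0.80 (neutrophil, both), and Ly6k 0.02 (code block), 0.14, 0.83 and 0.78 (neutrophil, erythroid, both). In Dp16_2xIFNRs they were Ly6a -0.02 (both), Ly6c1 -0.04 (neutrophil), Ly6g -0.46 and -0.79 (neutrophil, both) and Ly6k -0.01 (upper quartile), -0.03 and -0.03 (RPKM fits). Between these genotypes they were Ly6g 0.06 (code block), 0.02 and 0.01 (neutrophil, both) and Ly6i -0.30 (code block). Between the sexes they were Ly6c1 -0.02, -0.03 and -0.01 and Ly6i 0.39, 0.32 and 0.11 (replicate block, code block, without libraries rich in Gm42418) and Ly6g 0.05 and 0.06 (neutrophil, both). Leaving out a library turned Ly6c1 (-0.02 to 0.05) and Ly6i (-0.18 to 0.11) between the sexes, Ly6g (-0.33 to 0.04) and Ly6i (-0.07 to 0.26) between the duplicated genotypes, and Ly6k (-0.07 to 0.19) in Dp16_2xIFNRs. The main values of Ly6a between the sexes and of Ly6c1 between the duplicated genotypes were 0.00 as printed and fell on either side of 0, at -0.19 to 0.11 and -0.08 to 0.01 over the processing alternatives and -0.05 to 0.06 for each without a library.

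The replicate block gave 5534 and 5796 calls against WT and 4 between the other genotypes. It changed the call of Ly6a2 between the sexes and no other member's call. 6 of 18 libraries correlated best with their own number. Depth limits Ly6f, which could not be tested, and the errors of Ly6i and Ly6g (0.33 and 0.32 in Dp16 against WT) were the widest of the tested members.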
